A study of Mus musculus with 73 samples.

Results

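The contacts described here lie within the stretch X:98831149-99870000 (mm9) of the mouse X chromosome, at the upstream end of a probed region that holds the X-inactivation centre. They were measured by 5C, which counts ligation products between a forward primer on one restriction fragment and a reverse primer on another. The contacts were chosen by position: a pair of fragments is a member where both fragment midpoints lie in the interval. The interval was defined by its place away from the edits and was proposed with 5C results of these libraries known, so its wild-type pattern is a description and is not tested. It holds 126 forward and 128 reverse fragments, and therefore 16128 pairs of the 269808 that the design can count within the X region, or 5.98%. The last fragment inside ends at X:99855155 and the next one, whose midpoint falls outside, starts at X:99857990.

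The cells were male mouse embryonic stem cells of the line E14Tg2a, of the strain 129/Ola, which carry a single X chromosome. They were grown without feeder cells, with serum and leukemia inhibitory factor. Of 73 samples of the series, the 10 5C libraries used here fall into 5 genotypes with 2 libraries each: unedited wild type (WT), the deletions XiteE-del and XiteC-del, and the inversions XiteE-inv and XiteC-inv. Per the labels, the edits were made in this line with CRISPR or TALENs and clones of edited cells were grown from them, and no source used here says what the letters E and C mean. The descriptions give each XiteE-del, XiteC-del and XiteC-inv library a code of its own, while both XiteE-inv libraries carry the code #4 and both WT libraries the code E14. Nothing says that the libraries of a genotype came from separate cultures, so p-values measure only the spread between these libraries, which may be technical. The study asked how the division of the X-inactivation centre into domains bears on its regulation, and contacts far from the edits show how much a region without an edit varied between the same libraries.

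Mammalian chromosomes fold into topologically associating domains, stretches of DNA whose fragments meet each other more often than they meet fragments next door. Cohesin is thought to extrude loops of chromatin until it meets CTCF bound in a given orientation, and the ends of a domain therefore often show a focal contact with each other. In the X-inactivation centre, Xist, the RNA that silences the chromosome, and Tsix, its antisense repressor, lie in neighbouring domains, and Xite is an enhancer of Tsix.

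The edits were placed by the fragments that lost their counts. In both XiteE-del libraries, 2 neighbouring fragments spanning X:100623271-100633845 kept at most 5.40% of the counts of the lower WT library. In both XiteC-del libraries, 1 fragment at X:100636563-100639613 kept at most 3.72%. These fragments lie 753 kb and 767 kb beyond the end of the interval. An inversion keeps its fragments, so the inverted stretches were not placed.

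Library totals ran from 16267499 to 23928188 counts, of which the upstream pairs held 2397585 to 3466563. Between 71.7% and 85.3% of the 16128 pairs had at least 1 count in a library, and the median pair had 42 to 61. A further label, a code B100 or B101 whose meaning is not given, divides the libraries: WT replicate 2 and XiteE-inv replicate 2 are B101 and the other 8 are B100. The 2 B101 libraries stood apart from the rest in several measures below. Comparisons of share, slope and border depth with WT are therefore also given without them. Values within and between stretches are given only with them.

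The fragments fell in 35 bins of 30 kb, with 4 to 12 fragments a bin, and covered 80.0% of the interval. Their strength differed widely. A fragment's total, in counts-per-million (CPM) of the X counts, had a median of 1585 over the interval, a 10th percentile of 558, a 90th percentile of 2390 and a highest value of 6239, and 8 of 254 fragments were under 10% of the median over all fragments of their direction.

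In wild-type cells the interval was divided by 3 borders into 4 stretches. Borders were read from a crossing score at each bin edge: the log2 ratio of observed to expected counts between fragments in the 150 kb to the left and fragments in the 150 kb to the right. The expected count of a pair was the mean over the X region of the same library at the same separation, in classes of 30 kb. A score of 0 means as many contacts across the edge as is usual for that separation, and a border is an edge below 0 with the lowest WT mean within 90 kb on either side.

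The deepest border lay at X:99420000, 589 kb from the start of the interval. Its score was -1.003 in WT replicate 1 and -0.97 in WT replicate 2, so contacts across it were 0.499 and 0.510 of the expected. It was -0.95 and -1.02 in XiteE-del, -0.96 and -1.003 in XiteE-inv, -1.06 and -0.99 in XiteC-del and -1.02 and -1.10 in XiteC-inv. Every one of the 10 libraries had 0.465 to 0.519 of the expected contacts across this edge.

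The border at X:99690000, 859 kb from the start, scored -0.73 and -0.78 in WT and between -0.88 and -0.61 over all libraries, or 0.543 to 0.653 of the expected contacts. The border at X:99150000, 319 kb from the start, was the shallowest, with -0.38 and -0.14 in WT. At that edge both B101 libraries, at -0.14 and -0.15, were higher than all 8 B100 libraries, which ran from -0.44 to -0.31. Each of the 3 edges was the local minimum in 10 of 10 libraries.

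**Figure D1:**
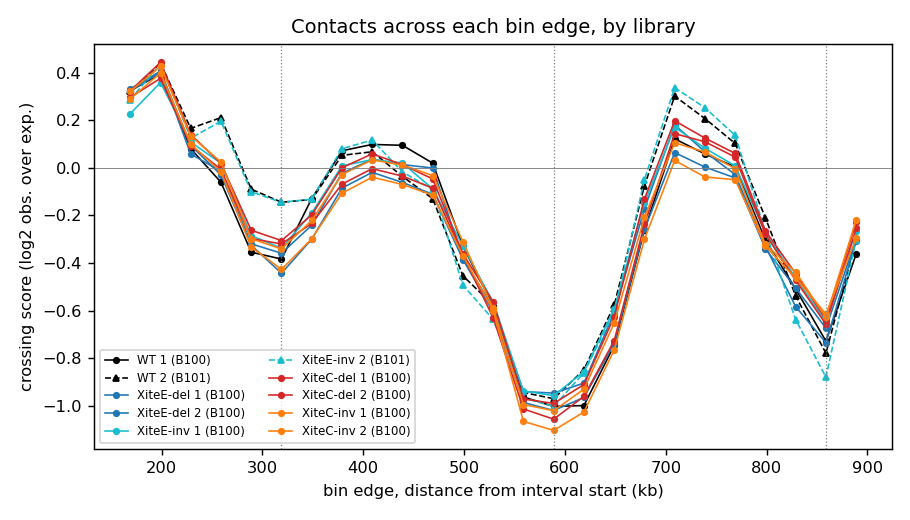
Crossing score (log2 observed over expected contacts between the 150 kb on either side) at each bin edge, against distance from the interval start in kb; each line is 1 library, coloured by genotype, with B101 libraries dashed and drawn as triangles. Dotted lines mark the 3 borders: all 10 libraries fall to about -1 at the middle border, and the B101 libraries lie above the others at the left one.

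The borders depended on how the unequal strength of fragments was treated. Under the planned division by fragment totals in 1 round, which by construction gives fragments with few counts great weight, the score at X:99420000 was 0.038 in the WT mean, with a range from -0.61 to 0.62 over libraries, and this edge was no longer a border. The scores at X:99150000 and X:99690000 were then 0.32 and -0.30 in the WT mean, so X:99690000 remained a border by the rule, and another appeared at X:99330000, at -0.20. A second correction, chosen after these values were seen, fitted a factor for each fragment and left out the weakest fragments. It put X:99420000 at -0.81 in the WT mean, with a range from -0.88 to -0.74, and X:99690000 at -0.45, with a range from -0.67 to -0.20. X:99150000 was at 0.064, with a range from -0.0060 to 0.19, and was not a border by the rule under either correction.

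Stretch 1, from the interval start to X:99149999, was the densest in counts against the expected. Its pairs had 1.28 ± 0.06 (SD, n = 2) times the expected counts in WT, with a range of 1.24 to 1.32 over the 10 libraries. Stretch 2, X:99150000-99419999, had 0.938 ± 0.005 and stretch 3, X:99420000-99689999, 0.959 ± 0.077. Stretch 4, which the interval end cuts at X:99870000, had 0.9500 ± 0.028. The stretches are thus not equally dense against the X region as a whole, whose mean is 1 by construction. Values within and between stretches carry no correction for fragment strength, and were not recomputed with one.

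Over all separations stretches 1 and 2 met each other almost as often as stretch 2 met itself, at 0.933 ± 0.062 times the expected (SD, n = 2). At 30 to 300 kb the WT means were 0.923 between stretches 1 and 2 and 1.02 within stretch 2. The value within stretch 2 was then the higher in every library. Across the deepest border stretches 1 and 3 met at 0.609 ± 0.014 and stretches 2 and 3 at 0.624 ± 0.042. Stretches 3 and 4, on either side of the border at X:99690000, met at 0.653 ± 0.012. Stretches 2 and 4 met at 0.822 ± 0.042, more than stretch 2 met stretch 3, which lies between them. In all 10 libraries stretches 2 and 4 stood higher, at 0.714 to 0.851, than stretches 2 and 3, at 0.569 to 0.654. The values of stretches 1 and 3 include the largest fragment pair of contact 2, described below. Those of stretches 2 and 4 include that of contact 3. Both fragment pairs were lowest in the B101 libraries, and the values were not recomputed without them.

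Taking separations of 30 to 300 kb only, where pairs within and between stretches can be compared at like distance, pairs within a stretch had 1.16 times the expected counts and pairs between stretches 0.752 in the WT mean. The ratio of within to between was 1.55 and 1.54 in the WT libraries. It was 1.58 and 1.57 in XiteE-del, 1.51 and 1.60 in XiteE-inv, 1.52 and 1.51 in XiteC-del and 1.53 and 1.52 in XiteC-inv. No library was outside 1.51 to 1.60. The borders were chosen on the WT libraries of this table, so the size of the ratio is a description.

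**Figure D2:**
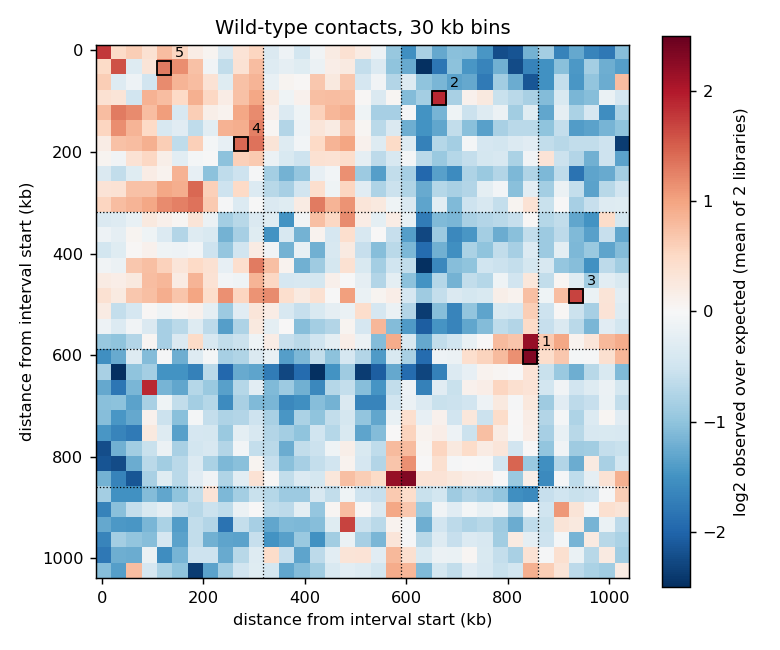
Wild-type contacts between 30 kb bins of the interval, as log2 observed over expected (mean of 2 libraries; red above and blue below the expected), with both axes in kb from the interval start. Dotted lines mark the 3 borders and numbered squares the 5 strongest separate contacts; the blue blocks lie mainly across the middle border, and contact 1 sits at the corner of stretch 3.

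The contact that ranked highest in the mean of the 2 WT libraries joined the ends of stretch 3 (contact 1). In WT replicate 1 alone, contacts 2 and 3, described next, ranked above it. It linked the bin X:99420001-99450000, just inside the deepest border, with X:99660001-99690000, just inside the next, 240 kb apart. It held 4.47 and 5.43 times the expected counts in the 2 WT libraries. The values were 5.12 and 4.27 in XiteE-del, 4.13 and 6.11 in XiteE-inv, 4.23 and 3.77 in XiteC-del and 4.40 and 3.65 in XiteC-inv. Both B101 libraries, at 5.43 and 6.11, were the highest of the 10. The bin pairs around it together had 1.57 times the expected in the WT mean, and the contact stood 2.504 to 3.63 times above them over the libraries. One of those neighbours, named here after its values were seen, was almost as strong: X:99390001-99420000, just outside the border, with X:99660001-99690000 had 4.14 and 4.95 in WT and 3.77 to 5.52 over the libraries.

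This contact did not rest on a single pair of fragments. It is the sum of 16 fragment pairs, and the largest of them in the WT mean, X:99670589-99673333 with X:99422367-99424502, held 14.6% to 19.9% of the counts. The 95% Wilson intervals of this share and of those of the other 4 contacts, which cover counting error only, were within 2.59 percentage points on either side. Without that pair the contact still had 4.33 times the expected in the WT mean and 3.22 to 5.40 over the libraries. With fitted fragment factors it had 5.50 in the WT mean and 4.41 to 6.37 over the libraries.

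Contacts 2 and 3 by rank in wild type each turned on 1 pair of fragments. Contact 2 joined X:98910001-98940000 with X:99480001-99510000, 570 kb apart and across the deepest border. It had 6.12 times the expected in WT replicate 1 and 1.22 in WT replicate 2. Of its counts, 48.3% to 89.6% came from the single pair of X:98916735-98920786 with X:99505824-99507531, 588 kb apart. That pair had 7832 counts in WT replicate 1 and 717 in WT replicate 2. It had 7775 and 8886 in XiteE-del, 8717 and 765 in XiteE-inv, 7483 and 7145 in XiteC-del, and 10299 and 10338 in XiteC-inv. The 2 low values, 44.1 and 45.3 CPM of the library total, belong to the B101 libraries, and the 8 B100 libraries ran from 353 to 524 CPM.

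Contact 3 joined X:99300001-99330000 with X:99750001-99780000, 450 kb apart. It had 5.72 times the expected in WT replicate 1 and 0.690 in WT replicate 2, which do not agree in direction. A single pair, X:99307242-99310241 with X:99750156-99750267, had 8217 counts in WT replicate 1 and 10 in WT replicate 2. It had 2932 and 584 in XiteE-del, 3975 and 10 in XiteE-inv, 808 and 2008 in XiteC-del, and 3145 and 874 in XiteC-inv. The pair made up 85.0% of the contact's counts at the most and 0.666% at the least. Again both B101 libraries were the lowest, and the B100 libraries of 1 genotype differed from each other by up to several fold.

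Without their largest fragment pair, a comparison chosen after the values were seen, neither contact stood above the expected level in wild type. Contact 2 had 0.657 in the WT mean and 0.588 to 0.823 over the libraries. Contact 3 had 0.799 in the WT mean and 0.664 to 1.05. What made these single pairs high in the B100 libraries was not tested.

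At separations of 30 kb or more, 5 of 15166 fragment pairs of the interval were at 10 CPM or more in every B100 library and at least 10 times as high in each as in either B101 library, and 0 were the other way round. This threshold was also set after the values were seen. The pair of contact 3 meets it and that of contact 2 does not, since its lowest B100 value was 353 CPM and its highest B101 value 45.3 CPM. Over the whole X region such pairs numbered 148 of 265704, against 0 the other way round, and the window of the same length at the far end of the region had 0.

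Contacts 4 and 5 lay within stretch 1, each 90 kb apart. Contact 4 joined X:99000001-99030000 with X:99090001-99120000, which ends 30 kb before the border at X:99150000. It had 2.34 and 3.05 times the expected in WT and 2.24 to 3.12 over the libraries. Contact 5 joined X:98850001-98880000 with X:98940001-98970000 and had 2.11 and 2.84 in WT and 2.11 to 2.91 over the libraries. In both, the largest fragment pair held at most 16.3% and 17.8% of the counts, and without it the WT means were 2.49 and 2.30. With fitted fragment factors they were 2.33 and 1.63.

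**Figure D3:**
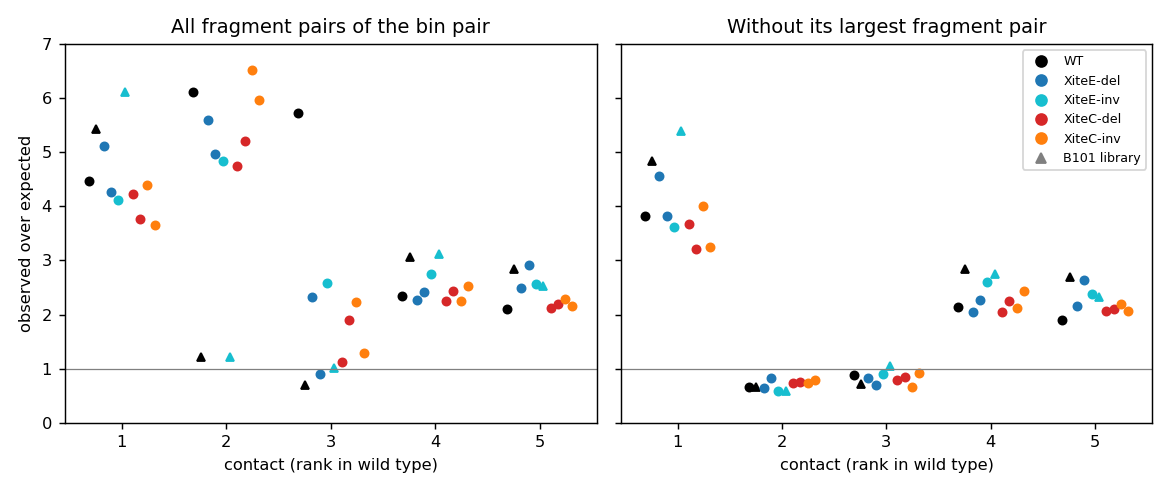
Observed over expected counts of the 5 strongest wild-type contacts (x axis, by rank), 1 point a library, coloured by genotype with B101 libraries as triangles; left, all fragment pairs of the bin pair, and right, without its largest fragment pair. Contacts 2 and 3 fall to 0.588 to 1.05 on the right, while contacts 1, 4 and 5 stay above 1.9 in every library.

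The upstream share of counts divided the libraries by B code. The members held 14.7% of all counts between 2 X fragments in WT replicate 1 and 18.7% in WT replicate 2. They held 14.8% and 14.9% in XiteE-del, 14.7% and 19.1% in XiteE-inv, 15.6% and 15.4% in XiteC-del, and 14.9% and 15.3% in XiteC-inv. The 95% Wilson interval of each share, which covers counting error only, was within 0.019 percentage points on either side. Both B101 libraries were higher than all 8 B100 libraries, which ran from 14.7% to 15.6%.

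Against WT the log2 share differed by -0.16 in XiteE-del, 0.015 in XiteE-inv, -0.095 in XiteC-del and -0.13 in XiteC-inv. All 4 differences were within 0.16, the SD between libraries of a genotype, and no edited genotype was clear of both WT libraries. That SD rests mainly on WT and XiteE-inv, at 0.25 and 0.27, which each hold 1 library of each B code. It was 0.0024 in XiteE-del, 0.018 in XiteC-del and 0.025 in XiteC-inv. The 2 WT libraries lay on either side of every other B100 library, so overlap with genotypes of B100 libraries alone was fixed. The exact two-sided permutation p was between 0.667 and 1, and 2 libraries against 2 cannot go below 0.3333. Without the B101 libraries the differences were 0.020, 0.00099, 0.082 and 0.044, so the sign of 3 of them turned.

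The same division ran through the decay of contacts with separation. Under 30 kb, a member pair had on average 65.9 to 72.8 CPM of the X counts in the B100 libraries and 94.1 to 102.9 in the B101 libraries. At 270 to 300 kb the values were 3.69 to 4.36 and 4.47 to 4.84. At 660 to 690 kb the order was turned, with 1.78 to 2.00 in the B100 libraries and 1.24 to 1.33 in the B101 libraries.

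The slope of log10 mean count on log10 separation, from 30 to 600 kb, was -0.86 in WT replicate 1 and -1.03 in WT replicate 2. It was -0.89 and -0.90 in XiteE-del, -0.89 and -1.07 in XiteE-inv, -0.92 and -0.89 in XiteC-del, and -0.88 and -0.90 in XiteC-inv. The B101 libraries had the 2 steepest slopes. Against WT the slopes differed by 0.045, -0.034, 0.037 and 0.051 in that order of genotypes. All were under the SD between libraries of a genotype, 0.077. That SD too rests mainly on WT and XiteE-inv, at 0.116 and 0.125. It was 0.0077 in XiteE-del, 0.020 in XiteC-del and 0.014 in XiteC-inv. The exact two-sided permutation p was between 0.667 and 1. For the slope too the 2 WT libraries lay on either side of every other B100 library, so overlap with genotypes of B100 libraries alone was fixed. Without the B101 libraries the differences were -0.037, -0.028, -0.044 and -0.030. They are then taken against WT replicate 1 alone, whose slope was the shallowest of the 10 libraries.

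**Figure D4:**
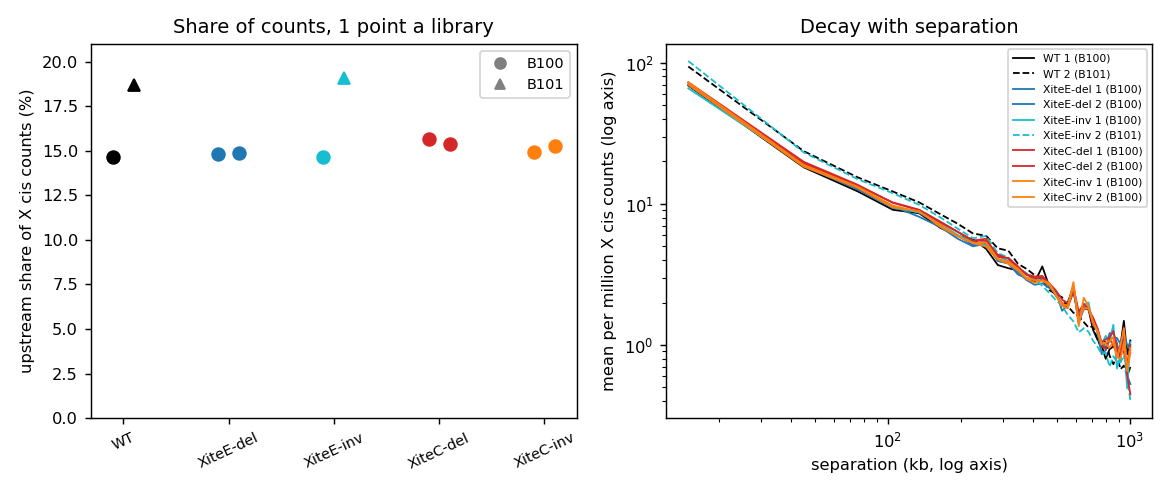
Left, the upstream share of X counts in percent, 1 point a library, by genotype, with B100 libraries as circles and B101 libraries as triangles; right, mean CPM of the X counts of a fragment pair against separation in kb (both axes log), 1 line a library, B101 dashed. The 2 B101 libraries are at 18.7% and 19.1% and the others at 14.7% to 15.6%.

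A window of the same length at the far end of the probed region, starting at X:102386296, divided the libraries likewise. Its share was 14.5% to 15.7% in the B100 libraries and 17.9% and 18.1% in the B101 libraries. Its counts were 0.948 to 0.975 of the expected in the B100 libraries, against 0.898 to 0.926 for the upstream interval. In the B101 libraries they were 0.977 to 0.986, against 0.967 to 0.972 upstream. It too held 3 borders, the deepest at a WT mean score of -0.98, next to -0.99 upstream.

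The depth of the deepest upstream border was then compared between each edited genotype and WT. The score minus that of WT was 0.0034 in XiteE-del, 0.0063 in XiteE-inv, -0.037 in XiteC-del and -0.076 in XiteC-inv, where the SD between libraries of a genotype was 0.044. In XiteC-inv both libraries, at -1.02 and -1.10, were below both WT libraries, at -1.003 and -0.97. The exact two-sided permutation p for that genotype was 0.3333, the smallest this design allows. Leaving out 1 library at a time moved its difference between -0.12 and -0.034. With fitted fragment factors the groups overlapped, at -0.874 and -0.875 in XiteC-inv and -0.880 and -0.745 in WT. With the expected taken from the interval's own pairs the XiteC-inv difference was -0.014 and the groups overlapped too, at -0.964 and -0.995 against -0.938 and -0.992. The XiteE-del difference was 0.073 and -0.070 with windows of 90 and 240 kb and 0.074 with that expected. Division by fragment totals gave -0.15, -0.54, -0.30 and -0.34 in the order of genotypes above, so no genotype is given a deeper or shallower border here.

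Bin pair by bin pair, no upstream contact passed the test in any edited genotype. Counts of 10617 pairs of 30 kb bins across the X region were fitted in edgeR's quasi-likelihood model, and all 630 upstream bin pairs were among them. At an adjusted p under 0.05, 0 of 630 were called in each of the 4 genotypes. Over all bin pairs the called share was 0.00% in XiteE-del, 0.00% in XiteE-inv, 0.00% in XiteC-del and 0.00% in XiteC-inv. The absence of calls is thus not particular to the interval. It holds at the edits too, where fragments kept at most 5.40% in XiteE-del and 3.72% in XiteC-del of the lower WT library. The fit called no bin pair even where fragments were lost, so 0 of 630 says little about the interval. At an unadjusted p under 0.05 the upstream bin pairs numbered 22 in XiteE-del, 3 in XiteE-inv, 5 in XiteC-del and 12 in XiteC-inv, or 3.49%, 0.476%, 0.794% and 1.90%. The shares over all bin pairs were 3.76%, 2.25%, 1.71% and 2.55%. DESeq2 also called 0 of 630 in each genotype, and it called 3, 4, 0 and 11 of all bin pairs. A fit with the B code as a block called 5, 0, 14 and 33 bin pairs over the X region and still 0 upstream.

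The size of change that this could show is limited by the spread. The biological coefficient of variation of the fit was 55.1% over all bin pairs with 5 residual degrees of freedom. The upstream bin pairs held a median of 1876 counts, and their median coefficient was 27.0%. For the other 3632 bin pairs at the same separations it was 29.3%, at a lower median of 1231 counts. The median standard error of an upstream log2 fold change was 0.29, and 0.22 to 0.25 once the B code was a block. Among the bin pairs that did not pass the test was 1 with a log2 fold change of 1.78 in XiteC-inv. The lowest upstream value, -2.87 in XiteE-del, did not pass it either. Log2 fold changes beyond 1 in either direction numbered 12 in XiteE-del, 4 in XiteE-inv, 5 in XiteC-del and 6 in XiteC-inv. The 0 calls therefore do not exclude changes of these sizes in single bin pairs.

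The median log2 fold change of the 630 bin pairs was -0.15 in XiteE-del, -0.01 in XiteE-inv, -0.06 in XiteC-del and -0.13 in XiteC-inv. Over all bin pairs the medians were 0.13, -0.03, 0.09 and 0.04. Once the B code was a block the upstream medians were 0.01, -0.01, 0.09 and 0.03, and those of all bin pairs -0.01, -0.05, -0.04 and -0.09. The direction of the upstream median in 3 genotypes thus turned with the block. All 4 comparisons share the 2 WT libraries. TMM scaling moved the upstream medians to -0.30, 0.06, -0.19 and -0.22, so no direction is given to the interval as a whole.

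**Figure D5:**
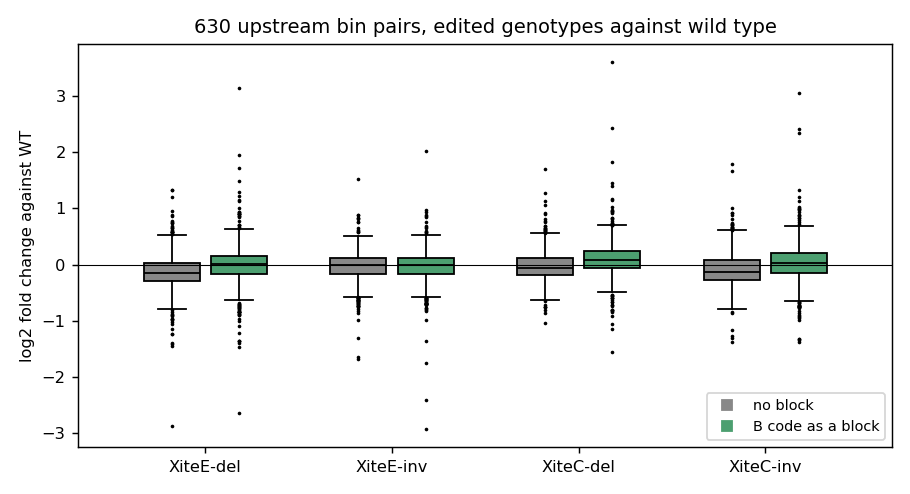
Log2 fold change against WT of the 630 upstream bin pairs for each edited genotype, in the fit without a block (grey) and with one for the B code (green). Boxes span the quartiles with the median as a line, whiskers reach 1.5 times the box, and points lie beyond; the medians in grey run from -0.15 to -0.01 and those in green from -0.01 to 0.09.

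The bin pair with the smallest unadjusted p of all 4 comparisons joined X:98880001-98910000 with X:99660001-99690000, 780 kb apart. It had 4.46 and 10.0 CPM in WT and 29.5 and 20.3 in XiteC-inv. The other libraries had 13.02 and 11.1 in XiteE-del, 10.5 and 16.3 in XiteE-inv and 14.2 and 20.8 in XiteC-del. WT was therefore the lowest of the 5 genotypes, and WT replicate 1 the lowest library. The log2 fold change of XiteC-inv was 1.78 ± 0.56 (SE), with an unadjusted p of 0.010 and an adjusted p of 0.999 in edgeR. Once the B code was blocked it was 2.34 with an adjusted p of 0.146, and without the B101 libraries 2.48 with an adjusted p of 0.182 in edgeR. That last fit sets XiteC-inv against 1 WT library, whose spread is assumed to be that of the genotypes with 2.

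In XiteC-inv the lowest p among decreases belonged to X:99180001-99210000 with X:99480001-99510000, 300 kb apart across the deepest border. It had 100 and 120 CPM in WT and 70.5 and 62.2 in XiteC-inv. The other libraries had 109 and 71.4 in XiteE-del, 82.8 and 102 in XiteE-inv and 80.0 and 86.8 in XiteC-del. The log2 fold change was -0.73 ± 0.28 (SE), and the edgeR adjusted p was 0.999.

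In XiteC-del the pair X:98910001-98940000 with X:99750001-99780000, 840 kb apart, had 13.9 and 17.5 CPM in WT and 30.8 and 37.9 in XiteC-del. The log2 fold change was 1.13 ± 0.40 (SE) with an edgeR adjusted p of 1. Among decreases, X:98850001-98880000 with X:98970001-99000000 had 590 and 747 in WT and 523 and 504 in XiteC-del. Its log2 fold change was -0.38 ± 0.17 (SE). There XiteE-del had 539 and 560, XiteE-inv 619 and 677 and XiteC-inv 476 and 531. Neither pair passed the test. The named pairs of each genotype were picked for the smallest p in their direction, so the gap between their groups is partly a result of that choice.

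In XiteE-del the pair X:98880001-98910000 with X:99540001-99570000 had 17.7 and 18.7 CPM in WT and 37.1 and 30.1 in XiteE-del. Its log2 fold change was 0.89 ± 0.34 (SE) with an edgeR adjusted p of 0.969. XiteE-inv had 30.9 and 30.5 there, XiteC-del 38.5 and 30.5 and XiteC-inv 20.7 and 18.9. Being higher than WT was thus not particular to XiteE-del. The same first bin with X:99180001-99210000 had 81.1 and 111 in WT and 48.7 and 61.9 in XiteE-del. The log2 fold change was -0.79 ± 0.28 (SE). For that pair XiteE-inv had 67.4 and 86.7, XiteC-del 79.0 and 76.5 and XiteC-inv 95.8 and 76.1.

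In XiteE-inv the pair X:98970001-99000000 with X:99810001-99840000 had 20.8 and 17.4 CPM in WT and 41.0 and 29.7 in XiteE-inv. Its log2 fold change was 0.89 ± 0.36 (SE). XiteE-del had 24.7 and 26.7 there, XiteC-del 24.5 and 26.7 and XiteC-inv 14.6 and 17.2. The pair X:98820001-98850000 with X:99330001-99360000 had 142 and 145 in WT and 71.4 and 94.6 in XiteE-inv, a log2 fold change of -0.79 ± 0.26 (SE), with an edgeR adjusted p of 1 for both.

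Between the B codes, each comparison being of 1 library with 1, the median difference was smallest at the longest separations. In WT the B101 library exceeded the B100 library by a median of 0.34 on the log2 scale over the 630 bin pairs, and in XiteE-inv by 0.20. Within single bins the B101 library was higher in both genotypes in 35 of 35. At 30 to 120 kb both genotypes showed the same sign in 90 of 99 bin pairs, and at 330 kb and more in 177 of 300. The 2 medians were 0.46 and 0.75 within single bins, and 0.13 and -0.05 at 330 kb and more.

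Across the 630 bin pairs, log2 observed over expected correlated between libraries with a Pearson r of 0.72 to 0.94, given as a description, since bin pairs share fragments and separations. The 2 libraries of a genotype had an r of 0.76 to 0.92. The 2 B101 libraries, of different genotypes, had 0.92. B100 libraries had 0.76 to 0.94 with each other and 0.72 to 0.89 with B101 libraries. The highest value, 0.94, was also between genotypes, for XiteC-del replicate 1 with XiteC-inv replicate 2.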

How the data were processed

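Per the submitters' processing notes, Bowtie2 and the build mm9 were used. The authors deposited raw counts per pair of primers, with pairs of 0 counts left unlisted, and no source used here describes the counting step. The deposited primer lists give fragment positions on mm9, a unit other than a measurement. Groups were taken from the sample titles. The members, lists and tests were chosen with earlier results of these data known.

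Counts were summed over 30 kb bins and tested in 1 fit of all 10 libraries with edgeR 4.0.16 (R 4.3.3), with the library total as offset, bin pairs of at least 10 mean counts and Benjamini-Hochberg adjustment (threshold 0.05). The fit was also run on simulated data with the spread of the B code block fit and no difference by B code. Most of the smaller changes put in, and part of the larger ones, went uncalled there. Named features are the borders, the 5 strongest wild-type bin pairs at 90 kb or more with at least 100 counts and none touching, and per genotype and direction the bin pair with the smallest p where none was called. Single values per library were compared by exact permutation. Alternatives covered scaling, DESeq2 1.42.0, filters, bin size, windows, fragment strength, the B code, replicate numbers and leaving out libraries. The other samples of the series were not analysed here.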

Additional observations from a re-analysis of the deposited data

How the results depend on the processing

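The count of 0 called upstream bin pairs held in all 96 combinations of 4 genotypes and 24 settings. That says little about stability, since most of these fits called no bin pair anywhere in the X region. Among fits of 30 kb bins the highest count was 38 of 10617, in XiteC-inv, where scaling by separation was joined to the B code block. The replicate block called 0 of 630 upstream in each genotype, and 0, 0, 0 and 1 over the X region in the order XiteE-del, XiteE-inv, XiteC-del, XiteC-inv, which holds below. The smallest adjusted p upstream was 0.0543, for XiteC-inv without the B101 libraries. Bins of 15 kb gave 40 calls over the X region in XiteE-del and 0 upstream. Replicate numbers did not pair the libraries: deviations of same-numbered libraries correlated at -0.08 to 0.33 over 10 pairs of genotypes, highest for WT with XiteE-inv, which share the B codes. For share, border depth and slope the block cannot change a difference of means, since each genotype has 1 library of each number.

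Leaving out 1 library at a time gave log2 shares against WT of -0.333 to 0.0196, -0.175 to 0.206, -0.271 to 0.0816 and -0.309 to 0.0436. Without the B101 libraries the share was 0.0196, 0.0816 and 0.0436 in XiteE-del, XiteC-del and XiteC-inv. A block on the B code, added after seeing the data, gave 0.0269, 0.0888 and 0.0509. Border depth against WT in XiteE-del was 0.0730 with a 90 kb window, -0.0697 with a 240 kb window and 0.0736 with the expected taken from the interval, which gave -0.0141 in XiteC-inv. Dividing by fragment totals in 1 round gave -0.147, -0.539, -0.298 and -0.337.

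The slope against WT was 0.131 in XiteE-del over 60 to 900 kb. Medians in place of means gave -0.300, -0.245, 0.378 and 0.246. Leaving out 1 library gave -0.0368 to 0.127, -0.122 to 0.0540, -0.0443 to 0.119 and -0.0303 to 0.133. Without the B101 libraries it was -0.0368, -0.0443 and -0.0303 in XiteE-del, XiteC-del and XiteC-inv, and a block on the B code gave -0.0400, -0.0475 and -0.0335. The cause of these shifts was not tested. The other 171 alternative values moved from those first given by less than the spread between libraries, or were 0 calls. For share and slope that spread rests mainly on WT and XiteE-inv, which mix the B codes. Settings that leave 1 library in a genotype assume that it varies like the others.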

Other observations

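Over all separations, contacts between stretches 1 and 2, at 0.852 to 0.977 of the expected over the 10 libraries, overlapped those within stretch 2, at 0.923 to 0.958. At 30 to 300 kb they ran from 0.836 to 0.968 between stretches 1 and 2 and from 0.964 to 1.06 within stretch 2. In every library the value within stretch 2 was the higher. Within 30 to 300 kb stretch 1 ran from 1.40 to 1.54 and stretch 4 from 0.854 to 0.985. Between 18.0% and 21.4% of the upstream counts fell on the 100 fragment pairs with the most counts in a library. Pairs under 30 kb held 43.2% to 51.8% of the upstream counts and 28.6% to 43.0% of those of the X region.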
